A study of Rattus norvegicus with 6 samples.

Results

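The circadian clock genes described here are 10 of the 33022 loci quantified in rat liver. They are the activators Arntl and Clock, the repressors Per1, Per2, Per3, Cry1 and Cry2, the nuclear receptors Nr1d1 and Nr1d2, and the output factor Dbp, each taken by its gene symbol. Male obesity-prone Sprague Dawley (op-SD) rats received a control diet (CD) or a Western diet (WD), rich in milk fat and sucrose, for 2 weeks. All rats were kept on 12 h of light and 12 h of dark, fasted for 16 h and refed their own diet for 1 h in the morning before the liver was taken. Total RNA, a light gradient fraction (mRNAs with 3 or fewer ribosomes) and a heavy fraction (4 or more) were sequenced for each diet, and each of the 6 libraries was 1 pool from 3 rats, with the fractions made from another part of the same homogenates. The hour at which each liver was taken and the ages of the rats are not given in the sources used here. With 1 pooled library per condition there was no replicate and no test, so every difference below is a difference between libraries.

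The mammalian clock is a transcriptional loop. The ARNTL (BMAL1) and CLOCK proteins bind E-box sequences and activate the Per and Cry genes, whose proteins return to the nucleus and repress ARNTL and CLOCK. NR1D1 and NR1D2 (REV-ERB alpha and beta) are also E-box targets and repress Arntl through ROR response elements, which the ROR receptors use to activate it. DBP is a further E-box target that acts on D-boxes together with TEF and HLF, against the repressor NFIL3. In liver most of these mRNAs cycle over the day, with Arntl opposite in phase to Nr1d1 and Dbp, and the liver clock responds to the time of feeding as well as to light.

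To show where the letters of these elements occur, RefSeq sequence of the GRCr8 build was searched. The search covered the 250 bases before and the 50 bases from each start site. A window was held for 9 of the 10 genes, with 11 windows in all. The letters searched on both strands were CACGTG (E-box), CACGTT (a variant called the E′-box), TTATGTAA or TTACGTAA (D-box) and TAGGTCA (ROR element). Of 33365 windows over all genes, 6.43% held the E-box, 4.84% the E′-box, 1.01% the D-box and 2.63% the ROR element. The windows below hold 30 bases around a match, written 5′ to 3′ along the gene with the matched letters in capitals. They are shown because their letters are those of the elements named above, and no binding or regulation through them was measured. An E′-box on the reverse strand reads AACGTG.
Arntl, ROR element, first base at -16 from the start site, chr1:176766301-176766330, plus strand: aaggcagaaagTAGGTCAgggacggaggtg
Nr1d1, E-box, first base at -191 from a start site, chr10:84229628-84229657, minus strand: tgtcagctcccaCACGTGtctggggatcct
Nr1d1, E′-box, first base at -174 from another start site, chr10:84231969-84231998, minus strand: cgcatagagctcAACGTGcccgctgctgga
Per2, E′-box, first base at -62 from the start site, chr9:99497038-99497067, minus strand: aacgcgcgcggtCACGTTttccactatgtg
Per2, D-box, first base at -192 from the start site, chr9:99497167-99497196, minus strand: ccatgtgcgtcTTATGTAAagagagcgacg
Cry2, E′-box, first base at -212 from the start site, chr3:98860632-98860661, minus strand: acacatggtgggAACGTGagggggcggggc
These matches are descriptions of the letters and not measured binding sites. Arntl carried the ROR element, and Nr1d1, Per2 and Cry2 carried E-box type letters, while the windows of Clock, Per1, Per3, Nr1d2 and Dbp held none of the 4 motifs.

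The libraries were unequal in depth, as judged from the FPKM values. Relative to the CD heavy library, the depth was 1.57 in CD total, 1.5 in WD total, 1.07 in CD light, 2.34 in WD light and 1.02 in WD heavy. Depth here is the inverse of the FPKM that 1 fragment gave, a scaling factor and not a count of reads. Fragments summed over the loci where they were inferred were 437863 in CD total and 455011 in WD total, the other order. That sum was also highest in WD light, at 780850. It leaves out the loci where no numbers were inferred, Alb and Ttr among them. Multiples of the inferred numbers would give the same FPKM. Fragment numbers were inferred from the steps in the FPKM values (fragments per kilobase of transcript, scaled by a factor for each library) and gave exact binomial 95% intervals, which cover counting error only and not the spread between rats. Markers of hepatocytes, 8 of 8 present in every library, summed to between 4.62e+04 and 1.4e+05 FPKM. Blood cell markers summed to 417 FPKM in WD light and to between 19.9 and 55.5 FPKM elsewhere, with S100a9 at 0 throughout. Most of the WD light sum was globin mRNA, with Hbb at 242 FPKM and Hba1 at 163 FPKM. Slc4a1 was also higher in WD light (2.2 FPKM) than in CD light (0.896 FPKM). Alas2 was lower in WD light (7.18 against 19.7 FPKM), as was Ptprc (2.11 against 2.87 FPKM). The 6 Kupffer cell markers summed to 55.3 FPKM in CD total and 84.1 FPKM in WD total and were higher there in 6 of 6. The adipocyte markers Adipoq, Plin1 and Lep and the bile duct marker Krt7 were at 0 throughout. Cidec, also on the adipocyte list, was present in every library, from 13.3 FPKM in CD heavy to 35.4 FPKM in CD light. The bile duct marker Epcam measured 0.694 FPKM in CD total and 4.35 FPKM in WD total, on 1 and 6 fragments. Sox9, of the same list, was above 0 only in WD light, at 0.365 FPKM, and Krt19 had no locus. The part of these cells in any value below was not tested, and fewer cells of a type cannot be told apart from less RNA per cell.

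The clock mRNAs spanned a wide range of listed levels, with the activators and Nr1d2 on top. Nr1d1 and Dbp came last because they were listed at 0 in 3 and 4 libraries. A listed 0 does not show a low level here, since Hspa8, a chaperone gene that every cell uses, was also listed at 0 in CD total, WD total and CD light. On the FPKM scale, which is per length, the order by mean was Clock, Nr1d2, Arntl, Per2, Per1, Cry2, Cry1, Per3, Nr1d1 and Dbp. The order has 2 clear steps. The lowest Arntl value lay above the highest Per2 value, and the lowest Cry1 value lay above the highest Per3 value. All other neighbours in the order had overlapping ranges over the 6 libraries.

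**Figure D1:**
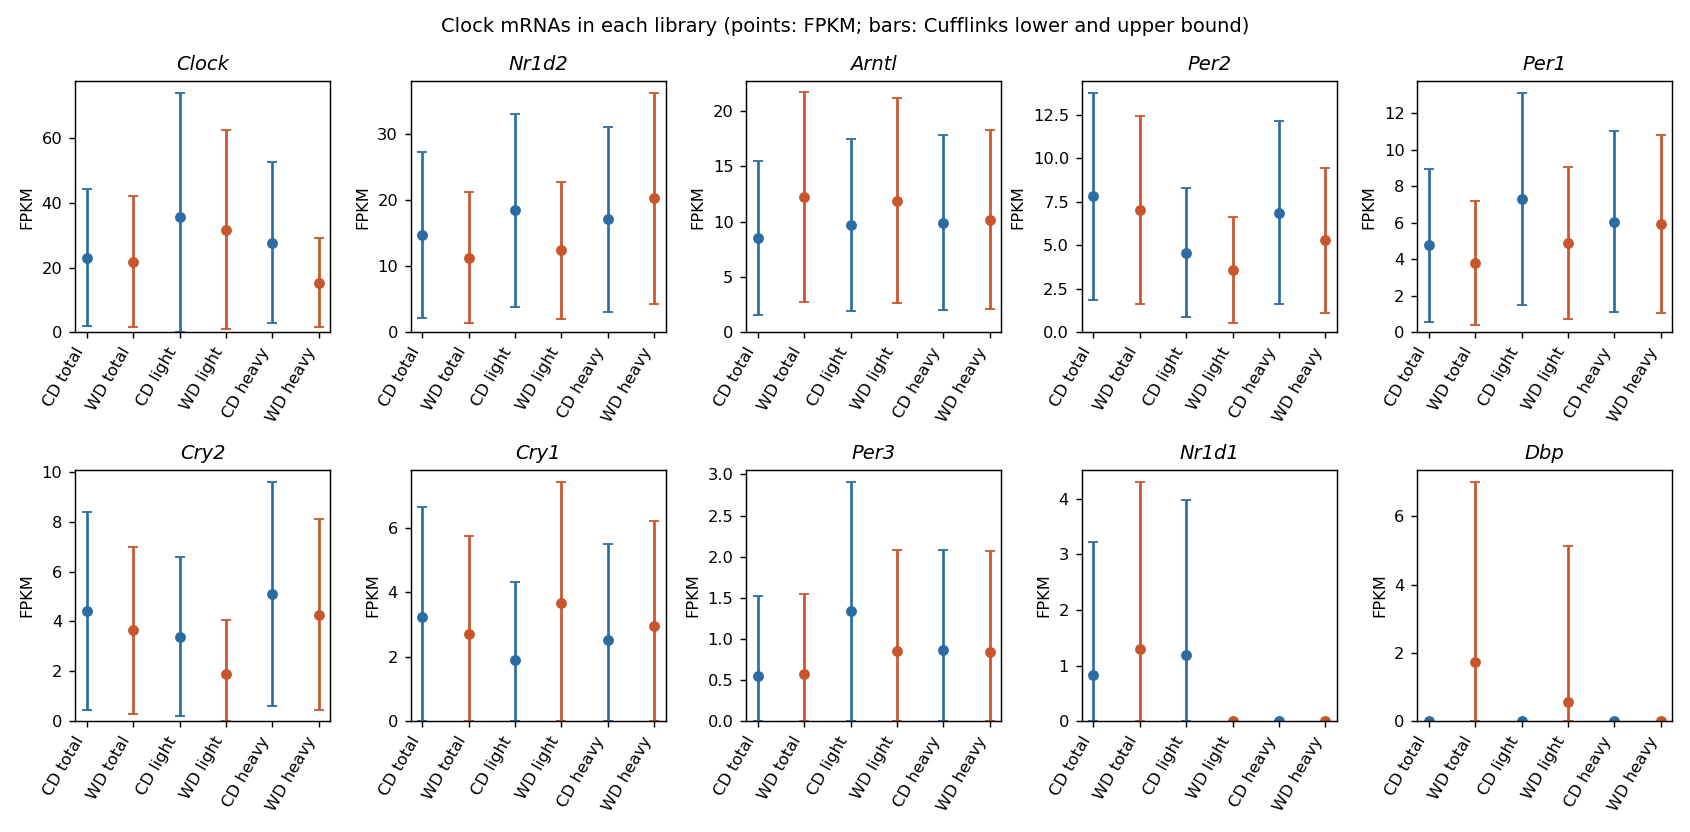
FPKM of each clock mRNA (y axis, its own linear scale from 0) in the 6 libraries (x axis), in order of mean level; blue is CD, orange is WD, and bars run from the lower to the upper bound given by Cufflinks. The bars of the diets overlap for every gene in total RNA and both fractions, and Nr1d1 and Dbp are listed at 0 in 3 and 4 libraries.

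Clock (chromosome 14, 34446615 to 34502270 on Rnor_6.0, as the file gives all loci below), the DNA-binding partner of ARNTL, had the highest mean of the 10. Its level was 23.1 FPKM in CD total, 21.9 in WD total, 35.7 in CD light, 31.8 in WD light, 27.8 in CD heavy and 15.4 in WD heavy. The WD heavy value stood lowest and the 2 light values stood highest. Its steps did not give fragment numbers, and the Cufflinks bounds of the heavy libraries, 2.81 to 52.8 FPKM in CD and 1.55 to 29.2 FPKM in WD, overlapped widely.

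Arntl (chromosome 1, 178039062 to 178137465), the activator without which the loop stops, varied least among the 8 that were above 0 in every library. Its level was 8.52 FPKM in CD total, 12.2 in WD total, 9.69 in CD light, 11.9 in WD light, 9.91 in CD heavy and 10.2 in WD heavy. The highest value was 1.43 times the lowest, and the highest came from WD total and the lowest from CD total. Clock stood above Arntl in 6 of 6 libraries, and Arntl stood above each Per and Cry mRNA in 6 of 6.

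Among the repressors, Per2 and Per1 were close to each other. Per2 (chromosome 9, 98555168 to 98597359) measured 7.83 FPKM in CD total, 7.04 in WD total, 4.58 in CD light, 3.58 in WD light, 6.89 in CD heavy and 5.29 in WD heavy. Its light values were the lowest in either diet. Per1 (chromosome 10, 55687049 to 55695994), which also responds quickly to hormones and feeding, measured 4.77 FPKM in CD total, 3.8 in WD total, 7.31 in CD light, 4.89 in WD light, 6.07 in CD heavy and 5.92 in WD heavy. Per2 was above Per1 in 3 of 6 libraries, so these neighbours had no fixed order. Per3 (chromosome 5, 168086997 to 168123395), a Per gene that the loop can run without, stayed between 0.547 FPKM in CD total and 1.33 FPKM in CD light, on 3 to 7 fragments a library.

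The cryptochromes bind and block the ARNTL and CLOCK complex. Cry2 (chromosome 3, 81314148 to 81344110) measured 4.41 FPKM in CD total, 3.64 in WD total, 3.39 in CD light, 1.87 in WD light, 5.1 in CD heavy and 4.27 in WD heavy. Cry1 (chromosome 7, 24534614 to 24634097) measured 3.21 FPKM in CD total, 2.69 in WD total, 1.88 in CD light, 3.68 in WD light, 2.52 in CD heavy and 2.96 in WD heavy. Cry2 was above Cry1 in 5 of 6 libraries, and WD light, where Cry2 was at its lowest and Cry1 at its highest, was the exception.

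The REV-ERB receptors stood far apart. Nr1d2 (chromosome 15, 8730870 to 8757165) measured 14.7 FPKM in CD total, 11.3 in WD total, 18.5 in CD light, 12.4 in WD light, 17.1 in CD heavy and 20.3 in WD heavy. Nr1d1 was listed at 0.83 FPKM in CD total, 1.3 in WD total and 1.2 in CD light, and at 0 in WD light, CD heavy and WD heavy. The Nr1d1 locus (chromosome 10, 86657284 to 86690815) has the same span as the listed locus of Thra, a thyroid hormone receptor gene that lies on the opposite strand and overlaps it. Thra measured between 1.36 and 5.21 FPKM over the 6 libraries. The counting is not stated to use strand, so the Nr1d1 value is uncertain and reads of the gene pair may have been split.

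Dbp (chromosome 1, 101687854 to 101692846), an output factor with one of the deepest daily rhythms known in liver, was listed at 1.75 FPKM in WD total, 0.561 FPKM in WD light and 0 in the other 4 libraries. Its upper bounds where it was listed were 7.02 and 5.12 FPKM. Dbp was listed above 0 in 2 libraries, both of WD, but against values listed at 0 no fold can be given. Arntl and Clock summed to 31.7 FPKM in CD total and 34.1 FPKM in WD total.

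In total RNA, Arntl was the clock mRNA that was higher in WD among those compared, and the other 6 were lower. A mean of at least 1 FPKM was required, and 7 of the 10 passed (not Per3, Nr1d1 and Dbp). All ratios are WD over CD after adding 0.1 FPKM, and a ratio of at least 1.5 or at most 0.75 was counted. The study set these numbers on CD over WD, for ribosome density, so that turned to WD over CD its limits are at least 1.33 or at most 0.667, and both counts are given. Among the 7, 0 reached 1.5, where 17.7% of all 10201 loci compared did, and 0 were at or below 0.75, where 22.7% were. With the limits turned, Arntl was the 1 at or above 1.33 (23.9% of all loci were) and 0 were at or below 0.667 (17% were). Of those not compared, Per3 stood at 1.04 (0.14 to 7.81) and Nr1d1, uncertain as said, at 1.51. Of the 7, 1 was higher and 6 were lower in WD, with a median log2 ratio of -0.25, against 0.02 over all loci compared.

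The Arntl ratio in total RNA was 1.43 (95% interval 0.849 to 2.45, on 27 CD and 37 WD fragments), which exceeded that of 80.2% of the loci compared. Nr1d2, the lowest, had a ratio of 0.769 with no fragment numbers. Between them, Per1 had 0.801 (0.389 to 1.6), Cry2 0.829 (0.39 to 1.71), Cry1 0.841 (0.287 to 2.35) and Per2 0.9 (0.584 to 1.38). The intervals were wide, and 50 CD fragments, those of Per2, were the most inferred behind any of these ratios. Clock stood at 0.945, or a log2 ratio of -0.08, which turned to 0.01 once the libraries were rescaled to the same FPKM sum.

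**Figure D2:**
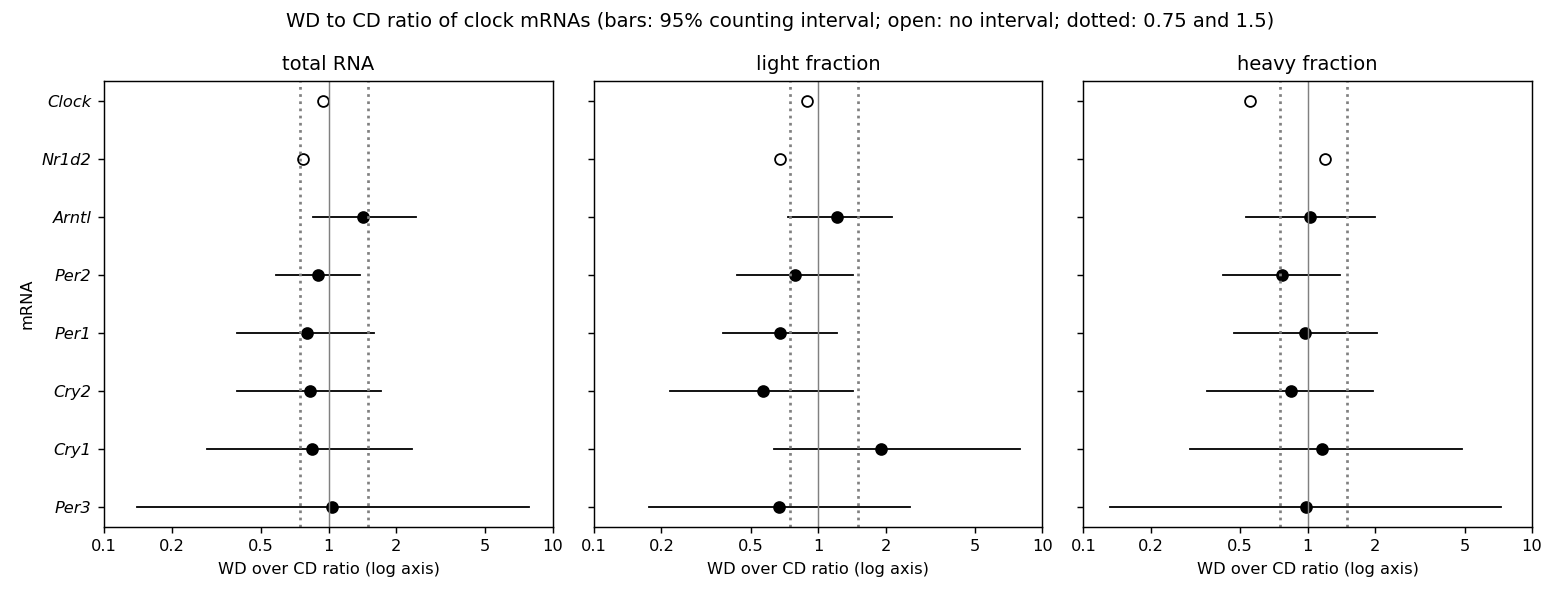
WD over CD ratio (x axis, log scale) of 8 clock mRNAs (y axis) in total RNA and the light and heavy fractions. Filled points carry 95% counting intervals (bars), open points have none, and dotted lines mark 0.75 and 1.5; every interval drawn includes 1.

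Rescaling each library to the same FPKM sum moved the median log2 ratio of all loci to 0.12 in total RNA, -0.29 in the light fraction, -0.04 in the heavy fraction and 0.28 for ribosome density. For Arntl in total RNA the log2 ratio moved from 0.51 to 0.61, which is past 1.5 as a ratio.

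In the light fraction, 4 of the 7 lay past 1.5 or 0.75. Cry1 was the 1 member at or above 1.5 (25.9% of all loci were), with a ratio of 1.91 (0.638 to 7.98) on 4 CD and 17 WD fragments. Per1, Cry2 and Nr1d2 were the 3 at or below 0.75 (26.8% of all loci were). Cry2 stood at 0.565 (0.219 to 1.43), Per1 at 0.673 (0.377 to 1.21) and Nr1d2 at 0.674. With the limits turned, Cry1 was the 1 at or above 1.33 (32.2% of all loci were) and Cry2 the 1 at or below 0.667 (20.6% were). Per2 stood at 0.787 (0.437 to 1.43) and Clock at 0.891. Arntl, at 1.22 (0.731 to 2.13), was higher in WD as deposited, with a log2 ratio of 0.29, and stood at -0.06 after rescaling. The WD light library also carried the globin transcripts and the greater depth given above, and the part of either in these ratios was not tested.

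In the heavy fraction, Clock had the ratio farthest from 1 among the 7, and the others lay between 0.77 and 1.19. No member reached 1.5, where 21.7% of all loci did, and Clock alone was at or below 0.75, where 25.8% were. With the limits turned, 0 were at or above 1.33 (26.9% of all loci were) and Clock was again the 1 at or below 0.667 (20.6% were). Clock stood at a ratio of 0.555, while Arntl stood at 1.02 (0.529 to 1.99) and Per1 at 0.977 (0.468 to 2.03). Nr1d2 stood at 1.19, Cry1 at 1.16 (0.298 to 4.85), Cry2 at 0.84 (0.354 to 1.95) and Per2 at 0.77 (0.418 to 1.39). The median log2 ratio of the 7 was -0.03, against -0.02 over all loci.

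Ribosome density, the heavy over light ratio of WD divided by that of CD, put Nr1d2 at the top and Cry1 and Clock at the bottom. Nr1d2 was the 1 of 7 at or above 1.5 (27.7% of all loci were), with a ratio of 1.76. Clock at 0.623 and Cry1 at 0.611 (0.0888 to 3.99) were the 2 at or below 0.75 (36.1% of all loci were). Cry2 stood at 1.49 (0.417 to 5.47) and Per1 at 1.45 (0.563 to 3.79), under 1.5 but past the study's limit once turned. By that limit, Nr1d2, Cry2 and Per1 were the 3 of 7 at or above 1.33 (32.9% of all loci were), and Clock and Cry1 were the 2 at or below 0.667 (30.9% were). Arntl stood at a log2 value of -0.26 and Per2 at -0.03, and these turned to 0.07 and 0.29 after rescaling. For Cry1 the log2 value of -0.71 became 0.47, a ratio of 1.38, when total RNA, not the light fraction, was the denominator. With that denominator Cry2 stood at 1.01 and Per1 at 1.22, both under 1.33, and Per2 at 0.856. Nr1d2 at 1.54 and Clock at 0.587 stayed past the limits, and Arntl at 0.718 came to lie under 0.75. The shares of all loci past the limits with that denominator were not computed.

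Within each diet, the clock mRNAs lay on both sides of a heavy over light ratio of 1, in a share near that of all loci. In CD, 4 of 7 had a heavy over light ratio above 1 (50.2% of all loci did), namely Arntl, Per2, Cry1 and Cry2. In WD it was also 4 of 7 (48.5% of all loci), namely Per1, Per2, Cry2 and Nr1d2. Per2 and Cry2 were thus on the heavy side in both diets, with heavy shares (heavy FPKM as a percent of heavy plus light) of 60.1% and 60.1% in CD and 59.6% and 69.5% in WD. Clock was on the light side in both, with 43.8% in CD and 32.6% in WD. Nr1d2 went from 48% in CD to 62% in WD and Per1 from 45.4% to 54.8%, while Cry1 went the other way, from 57.3% to 44.6%. The interval of the heavy over light ratio included 1 for each of the 5 of these 7 with fragment numbers, in both diets. The farthest from 1 was Cry2 in WD at 2.21 (0.937 to 5.55). Differences in position between these mRNAs are therefore not shown beyond counting error. After rescaling to the same FPKM sum, 5 of 7 were above 1 in WD, as Arntl went from 0.856 to 1.06. The share of all loci after rescaling was not computed.

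**Figure D3:**
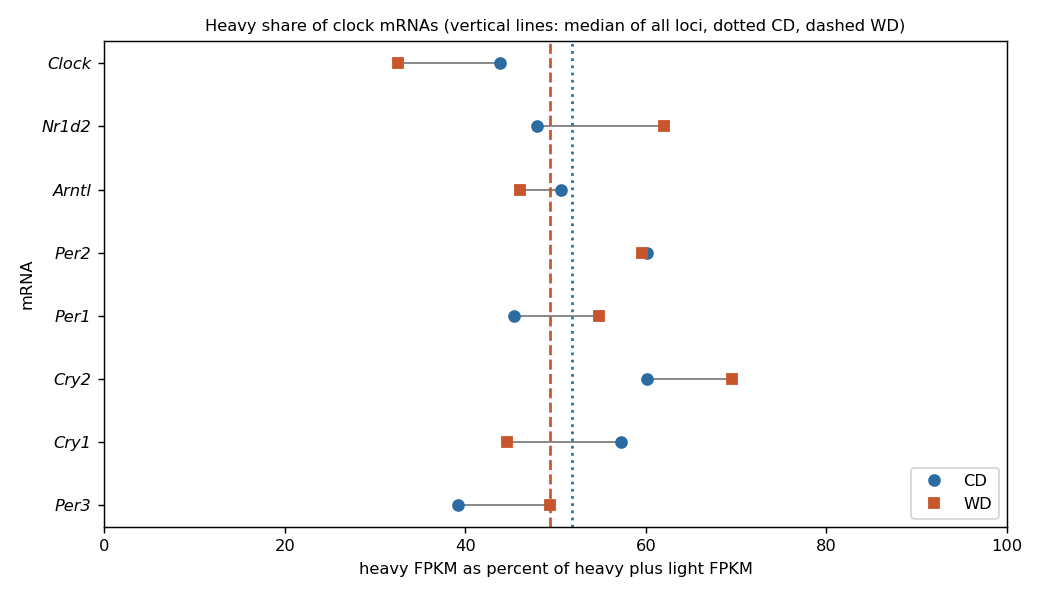
Heavy FPKM as a percent of heavy plus light FPKM (x axis) for 8 clock mRNAs (y axis) in CD (blue circles) and WD (orange squares). Vertical lines mark the median of all loci compared, 51.8% in CD (dotted) and 49.4% in WD (dashed); Per2 and Cry2 lie to the right of both lines in either diet and Clock lies to the left.

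A ratio of 2 genes inside the same library does not depend on how libraries were scaled. In total RNA, Arntl was above 1 and the other compared members were below 1, so its ratio to each of them was higher in WD by construction, and the values below give sizes only. Arntl over Per1 was 1.78 in CD and 3.21 in WD, a quotient of 1.8 (0.735 to 4.43). Arntl over Cry2 was 1.93 in CD and 3.35 in WD, a quotient of 1.74 (0.691 to 4.38). Arntl over Cry1 was 2.65 and 4.54, a quotient of 1.71 (0.525 to 5.69), and Arntl over Per2 was 1.09 and 1.73, a quotient of 1.59 (0.799 to 3.19). Arntl over Nr1d2 was 0.579 in CD and 1.08 in WD, and Arntl over its partner Clock was 0.368 and 0.558, a quotient of 1.52. The quotients share the same Arntl values and are not independent, and the 4 intervals all included 1. In the light fraction, Arntl over Cry1 was the ratio that was lower in WD, with a quotient of 0.627 (0.138 to 2.25), and Arntl over Clock had 1.38. In the heavy fraction the quotient was 0.875 (0.18 to 4.08) for Cry1, 0.863 for Nr1d2 and 1.85 for Clock.

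**Figure D4:**
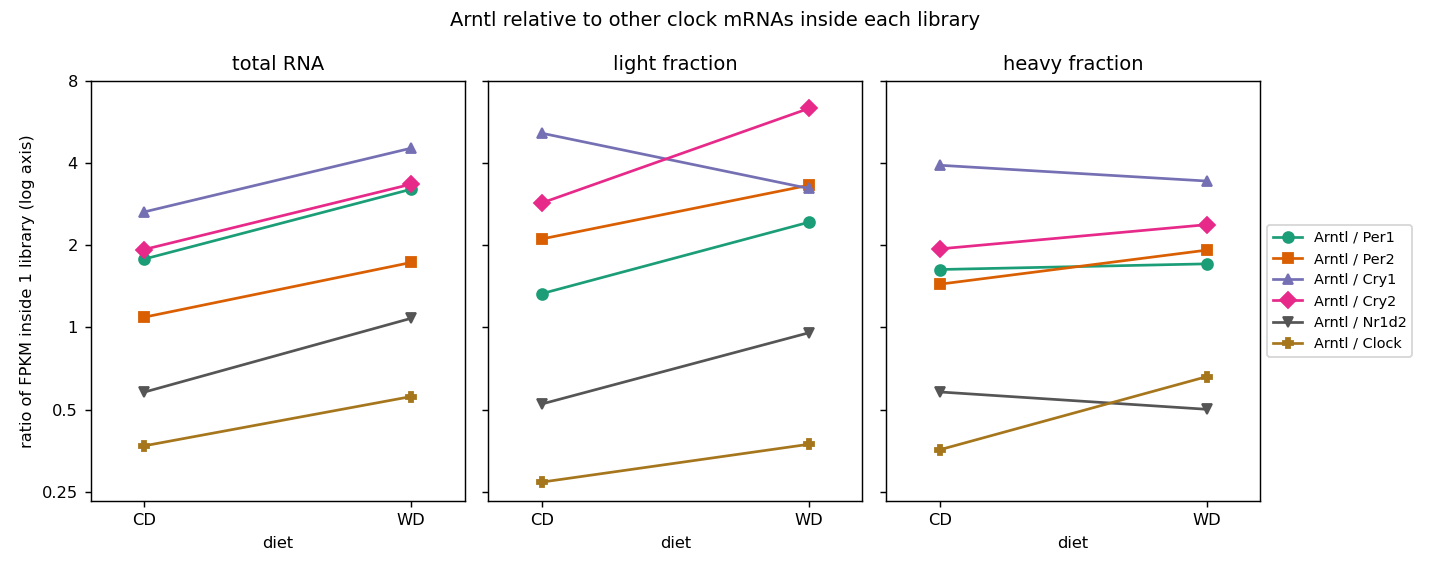
Ratio of Arntl FPKM to that of another clock mRNA inside the same library (y axis, log scale) in CD and WD (x axis) for total RNA and the light and heavy fractions; each line joins the 2 diets for 1 gene. The line for Clock goes up in all 3 panels, while that for Cry1 goes down in the light and heavy fractions and that for Nr1d2 in the heavy fraction.

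As limb sums, Arntl plus Clock over the 5 Per and Cry mRNAs was 1.52 in CD total and 1.92 in WD total. The ratio was highest in the light fraction, with 2.46 in CD and 2.94 in WD. In the heavy fraction it was 1.76 in CD and 1.33 in WD, the opposite direction. Clock made up most of the activator sum in every library.

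The repressors and PAR bZIP factors outside the 10 included the difference between diets with the most fragments behind it among the clock genes described. Bhlhe40 (DEC1), an E-box repressor that competes with ARNTL and CLOCK, measured 130 FPKM in CD total and 84.5 FPKM in WD total. It measured 91.2 FPKM in CD light and 51.4 FPKM in WD light. It measured 150 FPKM in CD heavy and 118 FPKM in WD heavy. The WD value was the lower in each kind of RNA, also after rescaling. The ratio was 0.651 (0.543 to 0.778, on 323 and 201 fragments) in total RNA, 0.564 (0.454 to 0.702) in the light and 0.787 (0.647 to 0.956) in the heavy fraction. Its density ratio was 1.39 (1.04 to 1.88). These intervals left out 1, but they compare single libraries, and the Cufflinks bounds of the diets overlapped.

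Of this list of 8, 7 were found and 5 were compared, and 3 of the 5 were at or below 0.75 in total RNA (22.7% of all loci were), with a median log2 ratio of -0.58 (0.02 over all loci). Besides Bhlhe40 these were the D-box activators, the partners of DBP. Hlf was 24.2 FPKM in CD total and 12 FPKM in WD total, a ratio of 0.497 (0.197 to 1.15). Tef was 22.2 FPKM in CD total and 14.9 FPKM in WD total, a ratio of 0.67, and its density ratio was 2.55. The D-box repressor Nfil3 stood at 0.78 (0.488 to 1.23), with a density ratio of 0.688 (0.309 to 1.52). Cipc, an inhibitor of CLOCK, stood at 1.17 (0.566 to 2.47). Bhlhe41 and Ciart were listed at 0 in all libraries, and Timeless had no locus of its own.

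Among the other activators, 3 of 5 were compared. Npas2, which can take the place of CLOCK, had a ratio of 0.844 (0.287 to 2.35) in total RNA. Arntl2, a paralog of Arntl, measured 1.48 FPKM in CD total and 3.86 FPKM in WD total, a ratio of 2.51. In the light fraction its direction was opposite, with 14 FPKM in CD and 4.47 FPKM in WD. Rora, the receptor that activates Arntl through ROR elements, stood at 1.04 (0.28 to 3.91) in total RNA and at 4.32 (1.38 to 22.8) in the light fraction, on 3 CD and 29 WD fragments. Rorb was listed at 0 in all libraries.

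The kinases and ubiquitin ligases that set the stability of PER and CRY proteins lay past the limits about as often as all loci. Of 12 compared, 2 were at or above 1.5 (17.7% of all loci) and 3 at or below 0.75 (22.7%) in total RNA, and 3 were higher and 9 lower, with a median log2 ratio of -0.29. Fbxw11, a ligase subunit that marks PER for breakdown, had a ratio of 1.56 (1.13 to 2.17). Its paralog Btrc stood at 0.938 (0.457 to 1.9), and its density ratio of 4.83 (0.836 to 64) was the highest of the list.

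Few of the genes whose mRNAs are rhythmic in liver lay past 1.5 or 0.75 in total RNA. Of 12 compared, 1 was at or above 1.5 (17.7% of all loci) and 1 at or below 0.75 (22.7%) in total RNA. Cyp7a1, the rate-limiting enzyme of bile acid synthesis, measured 22.2 FPKM in CD total and 50.6 FPKM in WD total, a ratio of 2.27 (1.75 to 2.98). It was also higher in the light fraction at 1.92 (1.5 to 2.48) and in the heavy fraction at 1.99 (1.49 to 2.7). Por, the electron donor of cytochrome P450 enzymes, measured 47.3 FPKM in CD total and 24.5 FPKM in WD total, a ratio of 0.519 (0.374 to 0.712). Insig2, which retains SREBP precursors, had the highest density ratio at 1.24 (0.932 to 1.66), and the cell cycle inhibitor Cdkn1a had the lowest at 0.448.

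Glucocorticoids and body temperature carry time of day to the liver, and their response genes were set beside the clock. Of 8 glucocorticoid response genes, 0 were at or above 1.5 (17.7% of all loci) and 4 at or below 0.75 (22.7%) in total RNA. Dusp1, a phosphatase of MAP kinases, was lower in WD in all 3 kinds of RNA, with ratios of 0.508 (0.37 to 0.688) in total, 0.47 (0.353 to 0.623) in light and 0.532 (0.331 to 0.836) in heavy. Fkbp5, a chaperone of the receptor, stood at 0.419 (0.067 to 1.63), Tsc22d3 (GILZ) at 0.629 (0.0974 to 3.22) and the cortisone reductase Hsd11b1 at 0.668 in total RNA. Klf9 at 0.795, Sgk1 at 0.948, Tat at 1.08 and the receptor gene Nr3c1 at 1.1 lay inside the limits. By density, Fkbp5 was the highest at 3.19 (0.978 to 11.1) and Tsc22d3 the lowest at 0.222 (0.0177 to 2.01).

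Of 7 temperature response genes, 5 were compared, with 1 at or above 1.5 (17.7% of all loci) and 1 at or below 0.75 (22.7%) in total RNA. Hsf1, the heat shock factor, stood at 1.8 (0.716 to 5.03) and the cold-induced Cirbp at 0.426 (0.0957 to 1.45). Rbm3, also cold-induced, stood at 0.943, Hspd1 at 0.908 (0.741 to 1.11) and Hsph1 at 0.779 (0.601 to 1.01). By density, Cirbp was highest at 1.89 (0.372 to 9.12) and the mitochondrial chaperone Hspd1 lowest at 0.22 (0.129 to 0.368). Hspa1b was listed at 0 throughout and Hspa8 at under 1 FPKM.

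The genes whose profiles over the 6 libraries lay closest to each clock mRNA were sought among 6724 loci, by the distance between log2 values after subtracting each gene's mean. For Arntl these were Fnip1 (distance 0.15) and Actr2 (0.24), and for Clock they were Usp33 (0.13) and Dhrs3 (0.14). Fnip1 stood at 4.24 FPKM in CD total and 6.27 FPKM in WD total, and Usp33 at 12.6 FPKM in CD heavy and 6.71 FPKM in WD heavy. The closest to Per1 were Pcbd1 (0.26) and Flot2 (0.26), to Per2 Tf (0.25) and Ptprs (0.26), to Cry2 Gk (0.15) and Ttr (0.19), and to Nr1d2 Scarb2 (0.29) and Tox4 (0.29). Among the clock genes themselves, Per1 and Nr1d2 were the closest pair, at 0.37.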

How the data were processed

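Total RNA and light and heavy gradient fractions of livers from rats fed CD or WD were pooled from 3 rats per condition, depleted of ribosomal RNA and sequenced as 6 libraries. Reads were mapped by the authors with TopHat (Rnor_6.0), and the deposited FPKM values per locus come with Cufflinks bounds. No unused sample columns were present. The annotation and the use of strand in counting are not given in the sources used here. From the deposited FPKM, ratios and log2 ratios were computed after adding 0.1 FPKM, for named loci whose estimate was marked OK and whose mean reached 1 FPKM. The study applied limits of 1.5 and 0.75 to CD over WD. Here these numbers were applied to WD over CD, and, as a setting added after the values were seen, also turned to 1.33 and 0.667. No test was run, since each condition has 1 library.

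Fragment numbers were inferred as the smallest whole numbers that reproduce a gene's 6 values, given a step for the gene and a scale for each library, within a relative tolerance of 2e-05. They were found for 9468 of 12460 loci with a symbol and a value above 0 in at least 2 libraries (76%, and 7.11% after values were jittered by 1%), and sum to between 275624 in CD heavy and 780850 in WD light. Multiples of these numbers would give the same FPKM. The method was tested on simulated data for WD total against CD total. The numbers put into the simulated data came back, up to a common divisor, for 3654 of 3654 genes. Of 200 changed genes, 199 had the right direction. The true fragment numbers behind the deposited values are not given in the sources used here, so their recovery was not tested. Recovery of differences as small as those between the diets for the clock mRNAs was not tested. Ratios of fragments carry exact binomial (Clopper-Pearson) 95% intervals, and ratios of ratios carry conditional odds ratio intervals, for counting error only.

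The members and lists were chosen with earlier results of these data known. Named genes are the 10 members, the highest and lowest of each other list by total RNA and by density, every member of the short lists, and the 2 profiles most like each member with a mean of at least 3 FPKM. Some genes that this rule names are not reported here. The other 2 added settings, the ratios within a library and the members with fragment numbers only, were added after the values were seen. Computations used scipy 1.17.1, numpy 2.4.6 and pandas 2.3.3 under Python 3.11.15, and plots used matplotlib 3.10.9. Motifs were searched in RefSeq windows of GRCr8, a build whose coordinates were not joined to those of the deposited loci.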

Additional observations from a re-analysis of the deposited data

How the results depend on the processing

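No paired analysis was possible because each condition has 1 library, and no replicate could be left out. Of 119 single-gene changes recomputed under the alternatives, 118 stayed within their counting interval or its usual width, but 4 of these, all inside the limits, changed sign after rescaling (Clock in total RNA, Arntl in the light fraction and by density, Per2 by density). The remaining 1, the density of Cry1, lay past a limit and turned to 0.47 with heavy over total RNA. It was set apart for this change of sign, since as a ratio it was 1.38, inside its interval of 0.0888 to 3.99. The intervals are wide and the alternatives use the same libraries, so staying within them does not show that a change is stable. Counts of members past a limit are small numbers, and some moved. With libraries rescaled to the same FPKM sum, 1 of 7 was at or above 1.5 in total RNA (20.5% of all loci were), 5 were at or below 0.75 in the light fraction (44.1%), and by density 3 were at or above 1.5 (37.9%) and 0 at or below 0.75 (27.2%). With the study's limits turned to WD over CD, 1 was at or above the upper limit in total RNA (23.9% of all loci were), 1 at or below the lower limit in the light fraction (20.6%) and 3 at or above the upper limit by density (32.9%). Without the filter on low values, over 10 members, 2 were at or above 1.5 in total RNA, 2 at or above 1.5 and 5 at or below 0.75 in the light fraction, and 2 at or above 1.5 by density, since Per3, Nr1d1 and Dbp then enter. Nr1d1 and Dbp enter partly on values listed at 0, against which no fold can be given. The share of all loci without the filter was not computed, so these counts are not results about the members. Over the 5 compared members with fragment numbers, 0 were at or below 0.75 in the heavy fraction, and by density 0 were at or above 1.5 and 1 at or below 0.75, since Clock and Nr1d2 leave. Over all loci compared, with or without fragment numbers, these shares were 25.8%, 27.7% and 36.1%. By density 2 were at or above 1.5 with a pseudocount of 0.01 FPKM, and 2 after centring on the median of all loci. The shares of all loci under either setting were not computed. Small fragment numbers limit these results: the values of these 5 rest on 4 to 56 inferred fragments. With Per3 added, 24 of 24 intervals of WD over CD (total, light, heavy and density) included 1.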

Other observations

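Transcription factors that set hepatocyte identity were measured as a yardstick for the clock genes. Of 12 compared, 0 were at or above 1.5 (17.7% of all loci) and 3 at or below 0.75 (22.7%) in total RNA, with a median log2 ratio of 0.10 (0.02 over all loci). Onecut1 (HNF6) measured 83.1 FPKM in CD total and 24.4 FPKM in WD total, a ratio of 0.294 (95% counting interval 0.215 to 0.396), and was also lower in the light fraction at 0.321 (0.244 to 0.418) and in the heavy fraction at 0.318 (0.138 to 0.659). Nr1h4 (FXR), the bile acid receptor, was the highest at 1.36. By density, Foxa3 was the highest at 1.44 (0.696 to 3.04) and Foxa2 the lowest at 0.203 (0.0182 to 1.28). These ratios compare single pooled libraries.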
